A study of Mus musculus with 18 samples.

Results

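The 36 genes described here form the core of sugar breakdown and of the transcriptional response to low oxygen: glucose and lactate carriers, the enzymes of glycolysis, lactate dehydrogenases, kinases that switch off pyruvate dehydrogenase, and genes induced in hypoxia. They were chosen by name. Each was read from the probe set annotated to it with the highest mean over the 18 arrays of the series. Of the 36 genes, 33 had a probe set of their own, out of 18193 genes measured in this way. Gpi1 and Eno1 had none in the annotation used, and the 3 probe sets of Bnip3l are shared with another gene, so these members have no value.

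The samples were male 129SV EBRTcH3 mouse embryonic stem cells (ESCs) and their derivatives, with 1 Affymetrix array per sample, grown with LIF and serum unless 2i is named. The parental ESCs in serum gave 2 untreated samples, called replicates 1 and 2. Each was followed by its own sample after 5 days of LY294002, an inhibitor of PI3K that the design text spells LY4294002. Replicate 2 also had a sample at day 2. Lines overexpressing wild-type c-Myc or the T58A form of c-Myc each gave an untreated, a day 2 and a day 5 sample, although the T58A samples at days 2 and 5 are called N-Myc overexpressing in the description of their untreated partner. Parental ESCs grown in 2i (serum-free medium that blocks MEK and GSK3) gave an untreated sample and 1 treated with LY294002 until day 5. Max-null ESCs, in which doxycycline (Dox) ablates Max expression, gave an untreated sample and samples at day 4 and day 6 of Dox. Max-null ESCs that also overexpress p110 alpha, the catalytic subunit of PI3K, gave an untreated and a Dox sample whose day is not given. No label says which samples came from separate cultures or how many clones a line held, so every p-value below measures only the spread between these arrays, whose number limits the precision. The values are RMA levels on the log2 scale, and a difference of 1 is 2-fold.

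In glycolysis, glucose is taken up, phosphorylated, split and oxidised to pyruvate, which is reduced to lactate or enters the mitochondrion. When oxygen is low, hypoxia-inducible factors (HIFs) escape hydroxylation by the Egln enzymes and destruction through Vhl, pair with Arnt and switch on most of these genes through sites that hold the letters ACGTG or GCGTG. PI3K signalling and c-Myc are both known to promote glycolysis in growing cells, and mouse ESCs are highly glycolytic.

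All 10 ESC markers looked up (Pou5f1, Sox2, Nanog and others) lay above 4.64, the 40th percentile of all values used here as a floor, on every array, with means of 11.94 to 12.54. The 9 fibroblast markers measured averaged 3.94 to 4.94, with 2 to 5 of 9 above the floor, and Col3a1, Lum, Postn and Twist2 lay below it on every array. The 9 markers of differentiated lineages averaged 5.27 to 6.48, highest in Max-null ESCs at Dox day 6. The arrays of parental replicate 1 and of the 2i samples had medians between 5.02 and 5.05, those of the other 14 arrays between 5.31 and 5.52. These 4 arrays appear to come from a separate RMA run, which no label states, so levels set across this line carry that limit. In bulk RNA, fewer cells of a type and less RNA per cell cannot be told apart.

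Many promoters of these genes hold HIF-type core letters, while those of Gpi1, Tpi1 and Eno2 hold neither motif. ACGTG, read on both strands from 250 bases before to 50 bases after an annotated start, was found in 26 of 52 member promoters (50%) and in 19.6% of all 32851 promoters of RefSeq's table for GRCm38.p6. GCGTG was found in 61.5% of member promoters and in 32.4% of all. Either was found in 78.8% and 43.8%. A palindromic CACGTG counts on both strands. Ndrg1, Slc2a3 and Bnip3l had no entry, so 33 of 36 members were matched. The 6 promoters below belong to members with large changes under LY294002, were chosen after their values were seen, and all hold a motif. Tpi1, which changed by 1.95 at day 5 in the 3 serum lines, is not shown. Nor is Vegfa (-1.29), where 1 of 2 annotated promoters holds neither motif. Capitals mark ACGTG and GCGTG or their reverse complements, CACGT and CACGC.
Bnip3, chr7:138909457-138909756, minus strand: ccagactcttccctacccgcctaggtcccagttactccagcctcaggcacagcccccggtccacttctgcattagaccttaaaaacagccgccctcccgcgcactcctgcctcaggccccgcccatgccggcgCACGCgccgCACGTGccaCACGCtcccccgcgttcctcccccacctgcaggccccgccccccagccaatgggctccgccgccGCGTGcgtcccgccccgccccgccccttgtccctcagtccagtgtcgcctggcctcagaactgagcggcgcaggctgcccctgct
Egln3, chr12:54203825-54204124, minus strand: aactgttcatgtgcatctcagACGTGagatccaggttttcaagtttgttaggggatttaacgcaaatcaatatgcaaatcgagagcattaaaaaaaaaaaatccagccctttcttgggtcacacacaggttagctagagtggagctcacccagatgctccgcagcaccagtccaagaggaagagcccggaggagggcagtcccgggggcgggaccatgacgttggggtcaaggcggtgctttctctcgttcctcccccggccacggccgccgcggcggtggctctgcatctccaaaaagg
Pfkl, chr10:78009758-78010057, minus strand: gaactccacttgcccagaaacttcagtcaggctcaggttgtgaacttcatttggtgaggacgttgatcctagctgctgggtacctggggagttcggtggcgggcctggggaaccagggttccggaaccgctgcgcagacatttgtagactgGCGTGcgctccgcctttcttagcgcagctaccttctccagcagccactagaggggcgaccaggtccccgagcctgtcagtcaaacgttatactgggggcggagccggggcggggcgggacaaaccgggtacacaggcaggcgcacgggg
Pgk1, chrX:106186850-106187149, plus strand: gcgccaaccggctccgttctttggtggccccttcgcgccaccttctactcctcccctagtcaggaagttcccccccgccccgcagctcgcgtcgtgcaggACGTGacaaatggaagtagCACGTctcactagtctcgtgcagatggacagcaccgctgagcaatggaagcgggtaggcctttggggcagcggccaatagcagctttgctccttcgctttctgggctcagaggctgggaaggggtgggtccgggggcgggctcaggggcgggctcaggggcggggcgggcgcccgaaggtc
Ldha, chr7:46845554-46845853, plus strand: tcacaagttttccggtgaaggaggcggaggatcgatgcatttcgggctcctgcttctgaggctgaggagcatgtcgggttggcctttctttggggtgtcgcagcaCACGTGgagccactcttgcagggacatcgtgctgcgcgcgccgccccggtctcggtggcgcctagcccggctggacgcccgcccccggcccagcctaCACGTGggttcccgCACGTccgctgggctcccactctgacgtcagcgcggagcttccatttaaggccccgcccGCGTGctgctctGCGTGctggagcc
Slc16a3, chr11:120948817-120949116, plus strand: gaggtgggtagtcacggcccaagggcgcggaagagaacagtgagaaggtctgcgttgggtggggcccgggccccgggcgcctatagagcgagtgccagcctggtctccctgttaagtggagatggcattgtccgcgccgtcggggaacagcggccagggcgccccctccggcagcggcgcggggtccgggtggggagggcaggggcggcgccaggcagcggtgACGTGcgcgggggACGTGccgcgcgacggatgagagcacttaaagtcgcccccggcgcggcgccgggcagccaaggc
Bnip3, whose product drives removal of mitochondria, holds both motifs, as does Ldha, the muscle-type lactate dehydrogenase. Pgk1, Slc16a3 and Egln3 hold ACGTG alone in this window and Pfkl GCGTG alone. A match is a description of letters, not of binding.

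The 2 untreated parental serum samples did not start from the same level. In replicate 2, 16 of 33 members were at least 2-fold lower than in replicate 1 and 1, Kdm3a, was at least 2-fold higher. Of all 12990 genes above the floor, 4.87% were at least 2-fold lower and 11.2% at least 2-fold higher. The median difference was -0.89 over the members and 0.20 over all genes, so relative to all genes the members stood 1.10 lower. With each array centred on its median, 20 members were at least 2-fold lower and 0 higher. This is a difference between 1 sample and 1 sample, also between the inferred RMA runs, and has no replicate check.

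The gap was widest for Bnip3, which read 11.53 in replicate 1 and 8.52 in replicate 2, a difference of -3.01. Aldoc, the brain-type aldolase, read 9.76 and 6.99. Pfkl, the liver-type phosphofructokinase that commits sugar to glycolysis, read 9.97 and 7.27. Each of these was about as low in untreated replicate 2 as in the untreated c-Myc lines of its run, which read 8.37 and 8.26 for Bnip3, 6.77 and 6.86 for Aldoc, and 7.57 and 7.70 for Pfkl. Pkm, which makes pyruvate, read 12.68 in replicate 1 and 10.23 in replicate 2. Egln3, a HIF prolyl hydroxylase that HIF itself induces, read 8.75 and 6.33. Hk1, which traps glucose as glucose phosphate, read 9.47 and 7.14. All 6 were thus lower in replicate 2 by more than 2 on the log2 scale. By role, 9 of 12 glycolytic enzymes, 5 of 11 hypoxia-response genes, Ldha and the lactate exporter Slc16a3 were at least 2-fold lower in replicate 2. Slc2a3, the high-affinity glucose transporter, differed by 0.22 and Vegfa, the angiogenic growth factor, by 0.35. The low-level probe sets of Slc2a3 gave -1.33 and -1.93, and the other probe set of Vegfa gave -0.35. The counts by role depend on the probe set used. Egln1 gave -0.89 on the set used and -2.18 on its other set. Ndrg1 gave -0.32 on the set used and -1.31, -0.77, -1.25 and -1.02 on the others. P4ha1 went the other way, with -1.34 on the set used and -0.80 on its other set.

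The untreated samples lay at a low or a high level for these genes. The members' mean above the array's own median was 3.44 in untreated p110 alpha Max-null ESCs, 3.46 in parental replicate 2, 3.47 in the wild-type c-Myc line and 3.57 in the T58A line. It was 4.82 in parental replicate 1, 4.85 in Max-null ESCs and 5.24 in 2i. Within the arrays of the larger inferred run, untreated Max-null ESCs stood above parental replicate 2 by a median of 1.48, with 24 of 33 members at least 2-fold higher and 0 lower, against 5.37% higher and 1.88% lower of all genes. High starting levels thus occurred in both inferred runs. From the marker lists of other cell types, Pdgfrb and Eomes were split the same way, and Col1a2, Cdx2 and Sox1 the opposite way. Pdgfrb, a receptor of fibroblasts and other mesenchymal cells, read 7.82 in untreated parental replicate 1, 9.17 in 2i and 7.52 in Max-null ESCs, and 4.23 in replicate 2, 4.68 and 4.49 in the wild-type and T58A c-Myc lines and 5.38 in p110 alpha Max-null ESCs. Eomes, a transcription factor of early lineages, read 7.77, 8.78 and 6.90 in the first 3 and 6.25, 6.19, 6.46 and 6.03 in the other 4. In the same order, Col1a2 read 3.97, 4.35 and 5.07, against 5.21, 5.83, 5.41 and 5.49. Cdx2 read 3.70, 3.91 and 4.64, against 5.03, 5.34, 5.54 and 5.43. Sox1 read 5.52, 4.16 and 4.28, against 6.76, 6.53, 6.72 and 6.19. The lowest of these values lay below the floor. Thy1 read 6.57, 5.64 and 6.69, against 5.22, 5.46, 5.82 and 5.96, and did not separate them. The collagen gene Col1a1 lay below the floor in all 7. The part of the cells that express these markers in the starting levels was not tested.

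**Figure D1:**
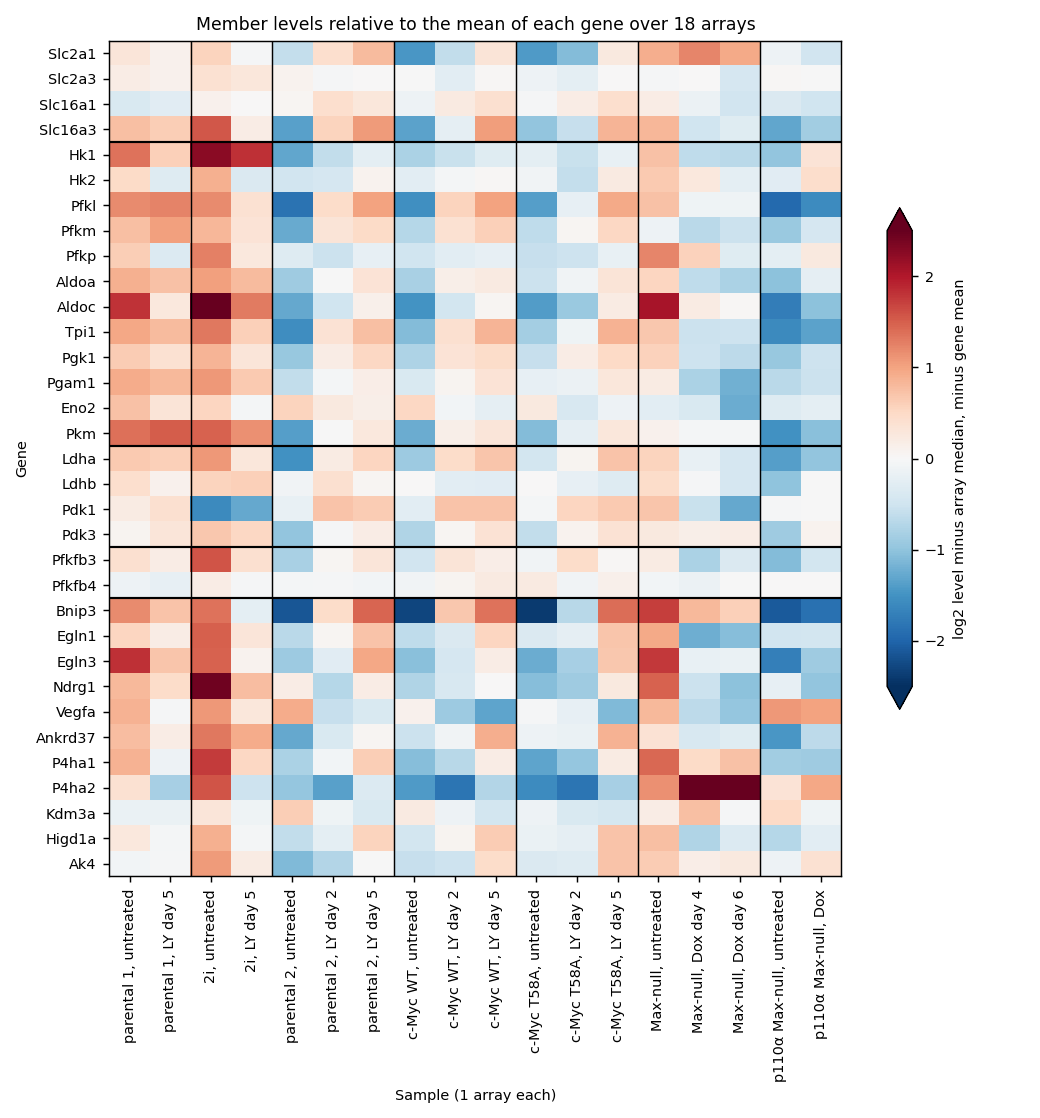
Log2 level of each of the 33 members (rows, grouped by role with black lines) in each of the 18 samples (columns, 1 array each), after subtracting the array median and then the gene's mean over 18 arrays; red is higher and blue lower. Untreated parental replicate 2, both untreated c-Myc lines and untreated p110 alpha Max-null ESCs are mostly blue, and the untreated parental replicate 1, 2i and Max-null columns are mostly red.

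In the 3 serum lines that started low, LY294002 was followed by higher levels of most glycolytic enzymes within 2 days. Most hypoxia-response genes were called higher at day 5 but not at day 2. Across 3 days in parental replicate 2 and the c-Myc lines, 9 samples in all (limma, line as a block, Benjamini-Hochberg over 13425 genes), 16 of 33 members rose and 4 fell at day 2. Of all genes, 18.3% rose, 12.2% fell and 30.5% changed. The median change was 0.41 over the members and 0.04 over all genes tested. Without the wild-type c-Myc line, 8 of the 20 members were still called, all higher: Pfkl, Pfkm, Tpi1, Pgk1, Pkm, Pdk1, Pdk3 and Bnip3. The other 12 (Slc2a1, Slc16a1, Slc16a3, Aldoa, Aldoc, Eno2, Ldha, Pfkfb3, Vegfa, P4ha1, P4ha2 and Kdm3a) kept their direction and lost the call. Without the line as a block, 13 members were called, all higher. At day 5, 23 of 33 members were higher than untreated and 3 lower, against 25.7% and 18.5% of all genes, with 44.1% called either way. The median was then 1.01 over the members and 0.05 over all genes. Of these calls, those for Slc16a1, Eno2 and Pfkfb3 were lost when 1 line was left out. Of 9 markers of differentiated lineages tested, 3 were higher and 1 lower at day 5, and of 4 fibroblast markers tested 1 was higher. Krt8, an epithelial keratin, read 6.56, 6.85 and 7.12 untreated in parental replicate 2, the wild-type and the T58A c-Myc line, 7.47, 5.98 and 6.39 at day 2, and 10.34, 8.40 and 7.75 at day 5. Eomes read 7.00, 6.96 and 6.98 and Pdgfrb 5.06, 4.88 and 4.96 at day 5, in each line above its start. Sox1, also a marker of differentiated lineages, read 6.76, 6.53 and 6.72 untreated and 4.89, 4.07 and 4.14 at day 5, lower in each line. Pax6, of the same list, read 8.22, 6.74 and 6.02 untreated and 5.42, 5.84 and 6.13 at day 5. The named markers thus went in both directions. Their part in the members' changes was not tested.

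Of the 4 carriers, 3 rose by day 2 and stayed up at day 5, where 18.3% and 25.7% of all genes were higher. Slc16a3, which exports lactate from glycolytic cells, read 3.91 in parental replicate 2, 3.94 in the wild-type c-Myc line and 4.26 in the T58A line untreated, all below the floor. It read 5.81, 5.03 and 4.64 at day 2 and 6.34, 6.27 and 6.06 at day 5 in the same order. No treated level overlapped an untreated level. The rise was 1.12 ± 0.24 (SE, adjusted p = 0.0119) at day 2 and 2.19 ± 0.24 (adjusted p = 0.000464) at day 5, and since it starts below the floor its size is less certain than that of brighter genes. Slc2a1, the basal glucose transporter, read 11.96, 11.10 and 11.12 untreated, 12.96, 11.92 and 11.42 at day 2, and 13.36, 12.84 and 12.74 at day 5. Its day 2 levels overlapped the untreated ones across lines, while every line was higher than its own start. Slc2a1 rose by 0.71 ± 0.16 at day 2 (adjusted p = 0.0153) and stood 1.58 ± 0.16 above untreated at day 5 (adjusted p = 0.000360). Slc16a1, a carrier that moves lactate in either direction, read 11.32, 11.13 and 11.22 untreated, 11.66, 11.46 and 11.39 at day 2, and 11.54, 11.62 and 11.62 at day 5. Its rise was small, 0.28 ± 0.09 at day 2 (adjusted p = 0.0455), with no overlap between treated and untreated samples. Slc2a3 stayed between 13.43 and 13.82 in all 9 samples and did not pass the test on either day.

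Among the 12 glycolytic enzymes with a value, 7 rose at day 2 and 8 at day 5, while Eno2, the neuronal enolase, fell on both days. Of all genes, 18.3% rose at day 2 and 25.7% at day 5. Pkm read 10.23, 10.37 and 10.51 untreated in parental replicate 2, the wild-type and the T58A c-Myc line. It read 11.58, 11.74 and 11.33 at day 2 and 11.88, 11.87 and 11.84 at day 5. The lines ended close together, and no treated sample overlapped an untreated sample. Pkm rose by 1.18 ± 0.12 at day 2 (adjusted p = 0.000741). Pgk1, which makes the first ATP of the pathway, read 12.08, 12.26 and 12.42 untreated, then 13.19, 13.34 and 13.15, then 13.55, 13.43 and 13.46. It rose by 0.97 ± 0.10 at day 2 (adjusted p = 0.000894) and by 1.23 ± 0.10 at day 5 (adjusted p = 0.000191), with the groups apart. Pfkl read 7.27, 7.57 and 7.70 untreated, 9.54, 9.64 and 8.85 at day 2, and 10.11, 10.06 and 9.99 at day 5. The T58A line was the lowest at day 2 and level with the others at day 5. The rise of Pfkl was 1.83 ± 0.20 at day 2 (adjusted p = 0.000918) and 2.54 ± 0.20 at day 5 (adjusted p = 0.000154), which is 5.82-fold. A dimmer probe set of Pfkl gave 0.03 at day 2.

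Tpi1, which interconverts the triose phosphates, read 9.93, 10.39 and 10.61 untreated, 11.82, 11.86 and 11.31 at day 2, and 12.23, 12.27 and 12.29 at day 5. Its treated samples all lay above its untreated samples, and it rose by 1.35 ± 0.19 at day 2 (adjusted p = 0.00267) and 1.95 ± 0.19 at day 5 (adjusted p = 0.000339). Pfkm, Aldoa and Aldoc rose on both days, by 1.10, 0.74 and 0.74 at day 2 and by 1.37, 1.01 and 1.49 at day 5. Pgam1, the mutase before enolase, rose by 0.63 at day 5 (adjusted p = 0.00278), after 0.32 at day 2 (adjusted p = 0.0547). The hexokinases Hk1 and Hk2 and the platelet-type Pfkp did not pass on either day, with day 5 differences of 0.50, 0.36 and 0.24. Eno2 read 5.59, 5.55 and 5.25 untreated, 5.25, 4.93 and 4.56 at day 2 and 5.17, 4.75 and 4.84 at day 5, near the floor throughout. It fell by 0.55 at day 2 (adjusted p = 0.00955).

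At the branch point after pyruvate, Ldha and both pyruvate dehydrogenase kinases rose. Ldha, which reduces pyruvate to lactate, read 10.77, 11.38 and 11.80 untreated in parental replicate 2, the wild-type and the T58A c-Myc line. It read 12.47, 12.73 and 12.30 at day 2 and 12.83, 12.93 and 12.94 at day 5. The untreated samples were spread over 1.04 between parental replicate 2 and the T58A line, and the day 5 samples lay close together above them. Ldha rose by 1.18 ± 0.21 at day 2 (adjusted p = 0.00547) and 1.58 ± 0.21 at day 5 (adjusted p = 0.000899). Pdk1, which blocks entry of pyruvate into the citric acid cycle, read 11.06, 10.98 and 11.18 untreated, 11.94, 11.94 and 11.72 at day 2, and 11.89, 11.91 and 11.85 at day 5. Pdk3, a kinase of the same family, read 7.24, 7.47 and 7.59 untreated, 8.18, 8.25 and 8.26 at day 2, and 8.42, 8.53 and 8.53 at day 5. Both kinases were apart from their untreated samples at each day. Pdk1 rose by 0.79 ± 0.09 at day 2 (adjusted p = 0.00127) and Pdk3 by 0.80 ± 0.08 (adjusted p = 0.000741). Another probe set of Pdk1 gave -0.05. Ldhb, the heart-type lactate dehydrogenase, stayed between 11.40 and 12.17 and did not pass on either day.

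Of the bifunctional enzymes that set the activator of phosphofructokinase, Pfkfb3 read 5.15, 5.48 and 5.85 untreated, 5.99, 6.26 and 6.36 at day 2, and 6.26, 6.07 and 5.92 at day 5. It rose by 0.71 ± 0.17 at day 2 (adjusted p = 0.0192) and by 0.59 ± 0.17 at day 5 (adjusted p = 0.0259), with no overlap. Pfkfb4 stayed between 6.43 and 6.78 and did not pass.

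**Figure D2:**
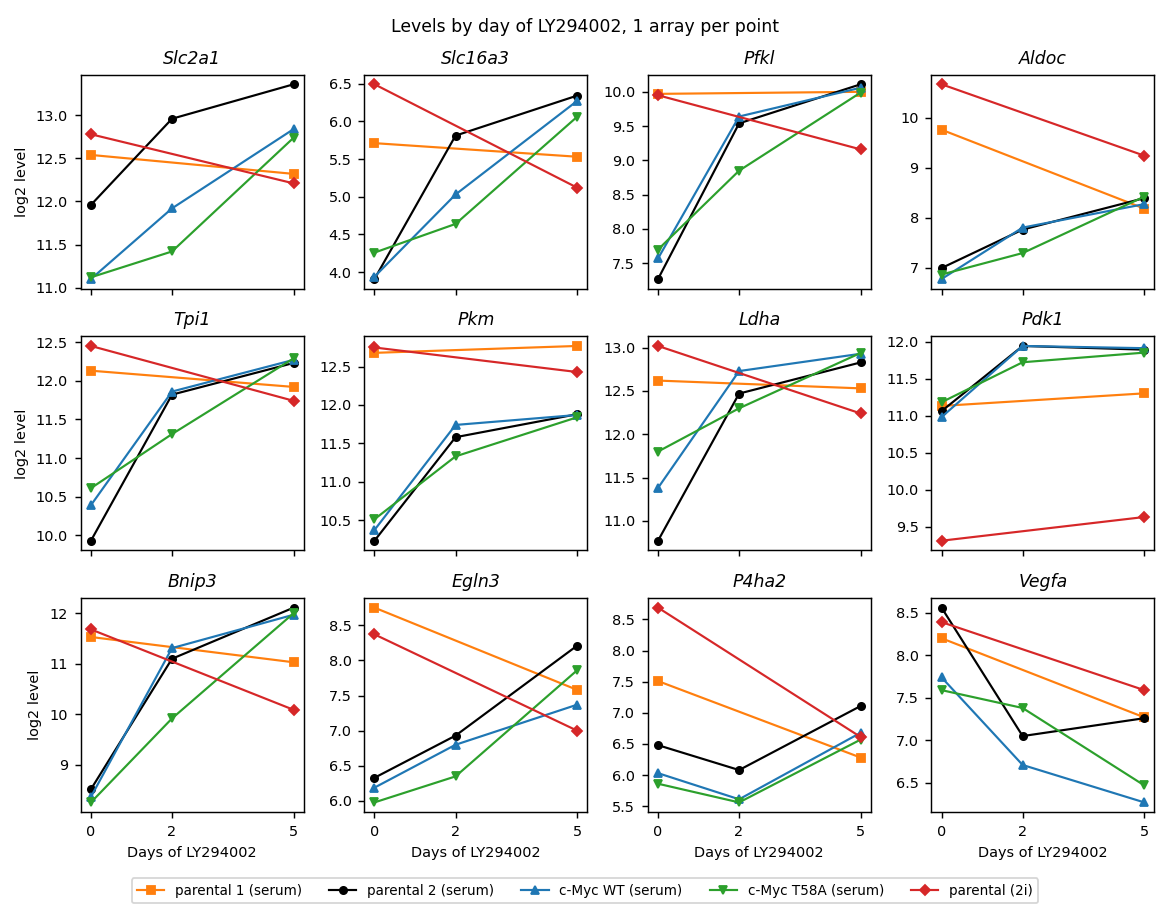
Log2 level (vertical axis, scaled separately in each panel) against days of LY294002 for 12 members, 1 array per point, with lines joining the samples of a line or medium. The 3 serum lines of the larger inferred run end above their start for 11 of the genes, while parental replicate 1 and the 2i samples stay level or go down for most; Pkm ends at 11.84 to 11.88 in the 3 climbing lines and at 12.77 in replicate 1, and Vegfa goes down in all 5 courses.

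The hypoxia-response genes did not move as a block at day 2, when 2 of 11 rose, 3 fell and 6 did not pass. Of all genes, 18.3% rose and 12.2% fell at that day. By day 5, 8 of 11 had risen, 2 were lower and 1, Ndrg1, did not pass, against 25.7% higher and 18.5% lower of all genes. Bnip3 read 8.52 in parental replicate 2, 8.37 in the wild-type c-Myc line and 8.26 in the T58A line untreated. It read 11.10, 11.31 and 9.92 at day 2, and 12.11, 11.97 and 12.00 at day 5. Every treated level was above every untreated level, with the T58A line lowest at day 2. The rise was 2.39 ± 0.25 at day 2 (adjusted p = 0.000854) and 3.64 ± 0.25 at day 5 (adjusted p = 0.000118), which is 12.5-fold and the largest among the members.

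P4ha1 and P4ha2, the catalytic subunits of collagen prolyl hydroxylase, went in different directions at day 2. P4ha1 read 7.37, 7.08 and 6.82 untreated, 8.07, 7.45 and 7.12 at day 2, and 8.76, 8.28 and 8.29 at day 5. P4ha2 read 6.48, 6.03 and 5.86 untreated, 6.08, 5.61 and 5.56 at day 2, and 7.11, 6.68 and 6.57 at day 5. Both had their highest value in parental replicate 2 at each day. P4ha1 rose by 0.46 ± 0.11 at day 2 (adjusted p = 0.0161), whereas P4ha2 fell by 0.37 at day 2 (adjusted p = 0.00582) and was 0.66 ± 0.07 above its start at day 5 (adjusted p = 0.000341). Egln3 read 6.33, 6.19 and 5.98 untreated, 6.93, 6.80 and 6.35 at day 2, and 8.21, 7.37 and 7.86 at day 5. Its day 2 difference of 0.52 missed the threshold (adjusted p = 0.0530), with no overlap of the 2 groups, and its day 5 rise was 1.64 ± 0.17 (adjusted p = 0.000382). Egln1, the main oxygen-sensing hydroxylase, likewise stood at 0.36 at day 2 and was not called and rose by 1.18 at day 5 (adjusted p = 0.000307). Ankrd37, the mitochondrial protein Higd1a and the mitochondrial adenylate kinase Ak4 did not pass at day 2 and rose by 1.23, 1.01 and 1.04 at day 5. The other 2 probe sets of Higd1a gave -0.27 and -0.25 at day 2.

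Vegfa and Kdm3a went the other way. Vegfa read 8.56, 7.74 and 7.59 untreated in parental replicate 2, the wild-type and the T58A c-Myc line, 7.05, 6.71 and 7.38 at day 2, and 7.26, 6.27 and 6.47 at day 5. The treated samples all lay below the untreated samples. Vegfa fell by 0.92 at day 2 (adjusted p = 0.0193) and by 1.29 at day 5 (adjusted p = 0.00298). With the mean of all its probe sets the day 2 difference was -0.53 (adjusted p = 0.0589), and without parental replicate 2 it was -0.62 (adjusted p = 0.0652). Kdm3a, a histone demethylase, read 11.38, 10.98 and 10.62 untreated, 10.64, 10.61 and 10.31 at day 2, and 10.37, 10.25 and 10.25 at day 5. Its day 2 levels overlapped the untreated levels across lines, and it fell by 0.47 at day 2 (adjusted p = 0.0228) and 0.70 at day 5 (adjusted p = 0.00291). Vegfa has ACGTG in 1 of its annotated promoters and Kdm3a GCGTG only. Among the 23 members with ACGTG, the median day 5 change was 1.18, with 20 higher and 1 lower. Among the 8 members without it, the median was 0.14, with 3 higher and 2 lower. Of all genes, with or without the motif, 25.7% were higher and 18.5% lower at day 5. All genes were not split by ACGTG, and the members were chosen as glycolysis and hypoxia genes, so the counts do not link motif and change. This split was looked at after the changes were known and was not tested.

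Between day 2 and day 5 the later gains lay mostly in the hypoxia-response genes. In the same fit, 8 members were higher at day 5 than at day 2 and 0 lower, against 1.18% and 1.09% of all genes and 2.27% either way. Of the 8, 6 were among the 11 hypoxia-response genes (P4ha2, Ak4, P4ha1, Egln1, Egln3 and Higd1a), 1 was among the 12 glycolytic enzymes (Aldoc) and 1 was the carrier Slc2a1. The largest called gain was 1.12 ± 0.17 for Egln3 (adjusted p = 0.0290), and P4ha2 gained 1.04 ± 0.07 (adjusted p = 0.00445). Bnip3 differed by 1.25 (adjusted p = 0.0514, not called). Ak4, which had read 9.00, 9.51 and 9.71 untreated and 9.34, 9.55 and 9.72 at day 2, stood at 10.09, 10.51 and 10.74 at day 5 and gained 0.91 ± 0.08 (adjusted p = 0.00914). The day 5 samples of Ak4 lay above all others. Without the line as a block 2 members were called. None of the 8 calls was left when either c-Myc line was taken out, where limma called 0 genes of any kind for this contrast.

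Line by line, the T58A c-Myc line was slowest at day 2. At least 2-fold above their own untreated level were 8 members in parental replicate 2, 9 in the wild-type c-Myc line and 2 in the T58A line, where 3.66%, 1.77% and 1.25% of all genes were. At least 2-fold below were 1, 1 and 0 members, against 2.70%, 2.24% and 1.32%. By day 5 the counts above were 20, 16 and 15, against 6.16%, 4.13% and 3.00% of all genes, and those below 2, 1 and 1, against 4.04%, 3.32% and 2.98%. The members' median change was 0.70, 0.43 and 0.17 at day 2 and 1.17, 1.00 and 0.93 at day 5. These are single arrays, and the difference between the lines was not tested.

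Over the 3 days, 6 of 33 members differed between the c-Myc lines and parental replicate 2, with 2 higher and 4 lower. Of all genes, 7.02% were higher and 7.20% lower, 14.2% either way. The members were thus called at a share near that of all genes. Slc2a1 was lower by 0.90 on the log2 scale (-0.90 ± 0.14, adjusted p = 0.0132) in both c-Myc lines at all 3 days. P4ha1 (-0.56), P4ha2 (-0.51) and Eno2 (-0.36) were also lower, and Ankrd37 (0.65) and Ak4 (0.48) higher, each in all 6 matched samples. No glycolytic enzyme was higher. Untreated, Ldha was higher than in parental replicate 2 by 0.62 in the wild-type and 1.04 in the T58A line, and over the 3 days it did not pass. None of the 6 calls was left when either c-Myc line was taken out. The parental arm is 1 line sampled at 3 days, so the spread between parental cultures is not in the error. The untreated parental replicates, 2 minus 1, differed by -1.34 for P4ha1, -1.02 for P4ha2, -1.74 for Ankrd37 and -0.69 for Ak4. Each of these gaps was larger than the gene's difference between the lines. For Slc2a1 (-0.58) and Eno2 (0.16) the gap was smaller. These gaps also lie across the inferred RMA runs.

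**Figure D3:**
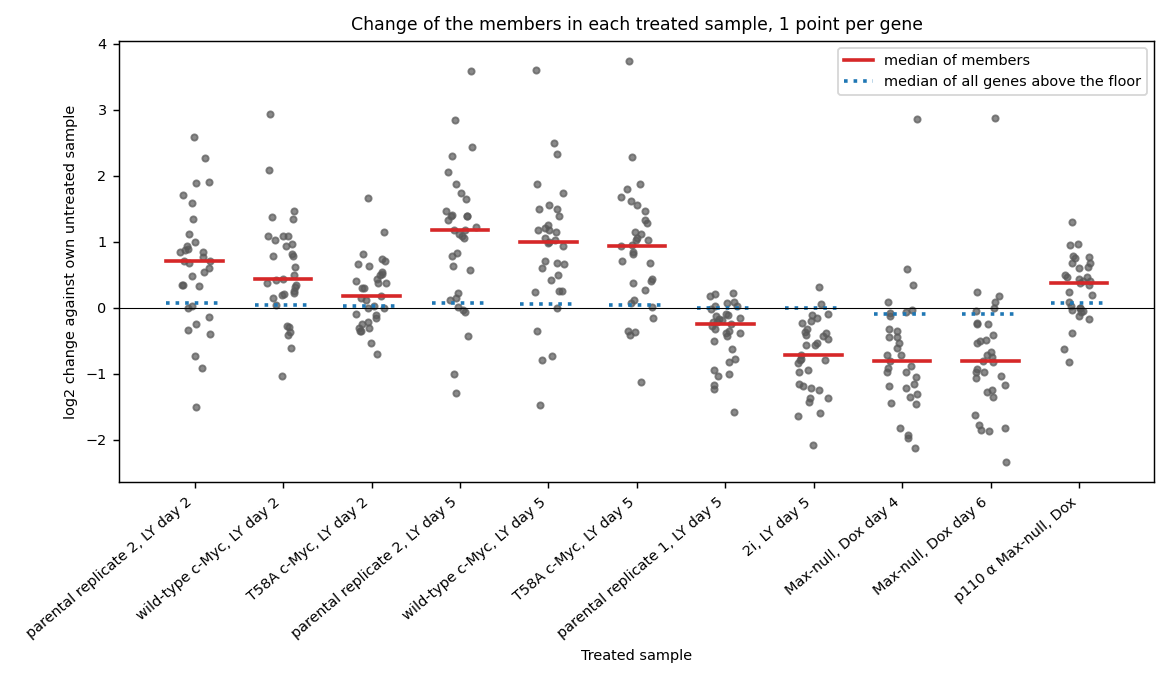
Log2 change of each member against its own untreated sample (1 point per gene) in the 11 treated samples, with the median of the members (red) and of all genes above the floor (dotted blue). The red line stands at 0.93 to 1.17 at day 5 in the 3 serum lines that started low, and below 0 in parental replicate 1, in 2i and in Max-null ESCs with Dox.

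Parental replicate 1 and the 2i ESCs, which started high, did not gain. In replicate 1 at day 5, 0 of 33 members were at least 2-fold higher and 5 were at least 2-fold lower than its untreated sample, against 0.663% and 3.09% of all genes. Aldoc read 9.76 untreated and 8.18 at day 5, Egln3 8.75 and 7.58, P4ha2 7.51 and 6.28, and P4ha1 8.71 and 7.68. These differences of -1.58, -1.17, -1.23 and -1.03 were opposite in sign to those of replicate 2, where the same genes differed by 1.40, 1.88, 0.63 and 1.39. The median change was -0.25 in replicate 1 and 1.17 in replicate 2. In 2i, 10 of 33 members were at least 2-fold lower at day 5 and 0 higher, against 2.23% and 0.435% of all genes, with a median of -0.71. P4ha2 read 8.69 and then 6.61, Ndrg1 10.34 and 8.70, and Bnip3 11.68 and 10.09. Only Pdk1 and Ldhb were above their start, by 0.31 and 0.05. Before treatment, 2i ESCs already differed from parental replicate 1: Ndrg1, a hypoxia-induced stress gene, read 10.34 in 2i and 8.74 in serum, while Pdk1 read 9.31 and 11.13. Pdgfrb went from 7.82 to 5.54 in replicate 1 and from 9.17 to 7.54 in 2i. Thy1 went from 6.57 to 5.53 in replicate 1 and stayed level in 2i, at 5.64 and 5.63. Their part in the lower levels was not tested.

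By day 5 the serum samples were close together whatever their start. The members' mean above the array median was 4.47 in parental replicate 1, 4.50 in parental replicate 2, 4.43 in the wild-type and 4.47 in the T58A c-Myc line, and 4.49 in 2i. Relative to all genes, 18 members were at least 2-fold apart between the parental replicates untreated and 1, Pkm, at day 5, where 14.4% and 8.52% of 13423 genes were. The gap was smaller at day 5 for 29 of 33 members (87.9%), against 57.9% of all genes; Slc16a1, Eno2, Pdk1 and Vegfa were the other 4. Of all 1014 genes that were at least 2-fold lower in untreated replicate 2 on that scale, 17.7% were still so at day 5, so most genes with a gap of that size had a smaller one later. On the deposited scale 3 members were at least 2-fold higher in replicate 2 at day 5 and 0 lower, against 11.2% and 1.06% of all genes, whose median difference was 0.28.

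**Figure D4:**
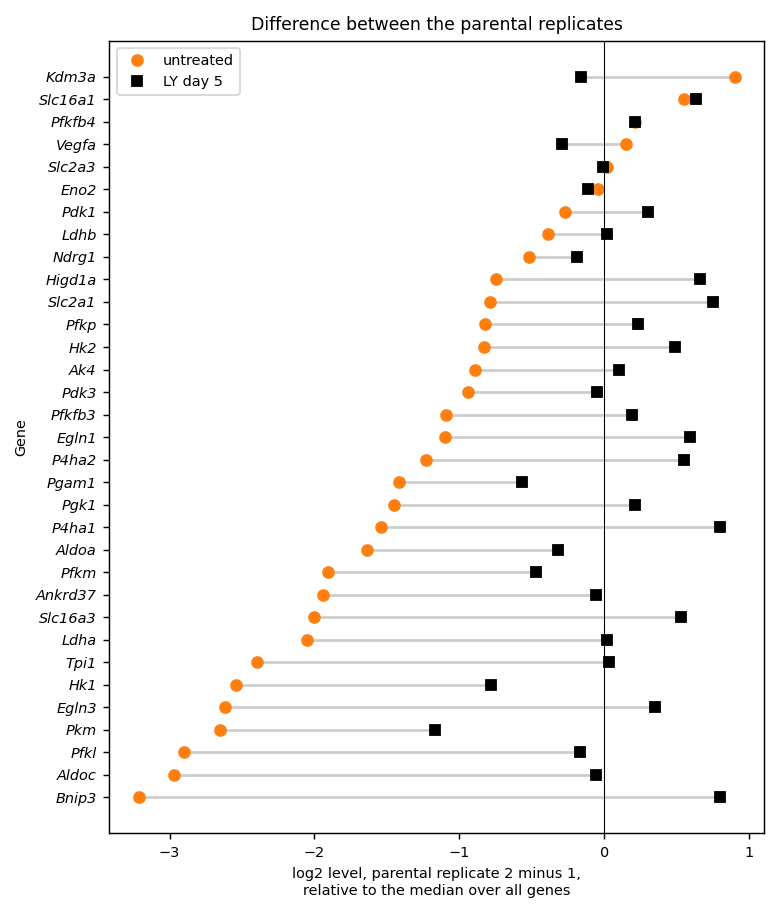
Difference in log2 level between parental replicates 2 and 1, minus the median difference of all genes, for each member (1 row per gene) untreated (orange circles) and at day 5 of LY294002 (black squares). Untreated points reach -3.21 for Bnip3, and day 5 points lie between -1.17 for Pkm and 0.80.

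Fitted together, the parental pairs gave no called member. In the 8-sample fit of the 4 serum pairs (limma, pair as a block, 2 residual degrees of freedom), 0 of 33 members passed in the parental pairs, where 0.529% of all genes were called (0.112% higher and 0.418% lower), and 3 had an unadjusted p under 0.05. The smallest adjusted p was that of Vegfa, which differed by -1.12 ± 0.16 (adjusted p = 0.0747) and was lower in both pairs. Leaving out either parental pair leaves 1 pair of arrays for the parental response, so no calls are given for such fits. Taken singly, the members' median change was 1.17 in replicate 2's pair and -0.25 in replicate 1's pair. In the c-Myc pairs of that fit, Vegfa was the only member called, lower by 1.29 on the log2 scale (-1.29 ± 0.16, adjusted p = 0.0428), against 2.62% of all genes called, 1.53% lower. Without the pair as a block 0 members were called there. The members' median was 0.99. Calls in the c-Myc pairs moved when a parental pair was left out, where the spread comes from the 2 c-Myc pairs alone. The difference between the c-Myc and parental responses gave 0 of 33 members, as it gave 0% of all genes, and 1 member at an unadjusted p under 0.05: Ndrg1, with 1.19 ± 0.27 (adjusted p = 0.996). A response that differs between c-Myc and parental ESCs was therefore not shown.

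In the Max-null lines the members again started high or low. Untreated p110 alpha Max-null ESCs had 21 of 33 members at least 2-fold below untreated Max-null ESCs and 0 above, against 4.78% and 1.34% of all genes, with a median of -1.44. Bnip3 read 12.38 in Max-null and 8.58 in p110 alpha Max-null ESCs, Aldoc 10.32 and 6.56, Egln3 8.99 and 5.54, and Pfkl 9.82 and 7.18. These differed by -3.81, -3.76, -3.46 and -2.64, all lower in the line with p110 alpha. This is 1 sample against 1 sample.

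With Dox, Max-null ESCs had 12 members at least 2-fold lower and 1 higher at each of days 4 and 6. Of all genes, 8.71% were lower and 5.19% higher at day 4, and 15.6% and 8.92% at day 6. The median change of the members was -0.81 at both days. The markers of differentiated lineages averaged 5.41 untreated, 5.76 at day 4 and 6.48 at day 6, with 7 of 9 above the floor each time, and fibroblast markers 4.55, 4.60 and 4.94, with 3, 4 and 5 of 9. Their part in these changes was not tested. Aldoc read 10.32 untreated, 8.49 at day 4 and 8.45 at day 6. Egln1 read 8.76, 6.63 and 6.91. Ndrg1 read 9.72, 7.74 and 7.38. These were low at both days of Dox. Among the markers, Krt8 read 7.44, 8.45 and 10.29, and Pdgfrb 7.52, 5.95 and 6.68. P4ha2 was the member at least 2-fold higher, at 8.59 untreated and 11.45 and 11.46 with Dox, 2.86 and 2.87 above its start. Pkm, Pdk3 and Slc2a1 stayed within 0.35 of their start at both days.

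In p110 alpha Max-null ESCs, 1 of 32 members above the floor was at least 2-fold higher with Dox and 0 lower, against 1.55% and 0.445% of all genes. That member was Hk1, which read 7.47 untreated and 8.77 with Dox. The median change was 0.38, and 22 of 32 members lay above 0, against 60.3% of all genes. At Max-null days 4 and 6, 4 and 5 of 33 lay above 0, against 43.3% and 46.2%. Lower at both Max-null days and higher in the p110 alpha line were 20 of 33 members (60.6%) and 30.6% of 14208 genes. Pdgfrb in the p110 alpha line went from 5.38 to 6.14, and its part was not tested. The difference between the lines was smaller with Dox than without for 27 of 33 members against Max-null day 4, and for 26 against day 6, where it was smaller for 40.3% and 30.8% of all genes. Of all 632 genes that were at least 2-fold lower in untreated p110 alpha Max-null ESCs, 82.6% and 78.0% were closer, so a smaller gap was common among genes that started that far apart. In the 5-sample fit with line as a block (limma, 2 residual degrees of freedom), 0 of 33 members and 0% of all genes were called for Dox. An unadjusted p under 0.05 was reached by Ndrg1 (-1.58 ± 0.37), P4ha2 (1.89 ± 0.51), Vegfa (-0.93 ± 0.37) and Egln1 (-1.14 ± 0.46), and the smallest adjusted p was 0.80. In data simulated for this fit, with 100 of 13536 genes changed by 1 and 100 by 2 on the log2 scale, 0% were recovered. The spread was that of the fit's own residuals, and the number of changed genes in the data can differ. What the fit could have called in the data is thus not known, and the lack of calls is not read as no change. Without the p110 alpha Dox sample, the fit would set 2 days of 1 line against 1 untreated array, so no calls are given for it.

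**Figure D5:**
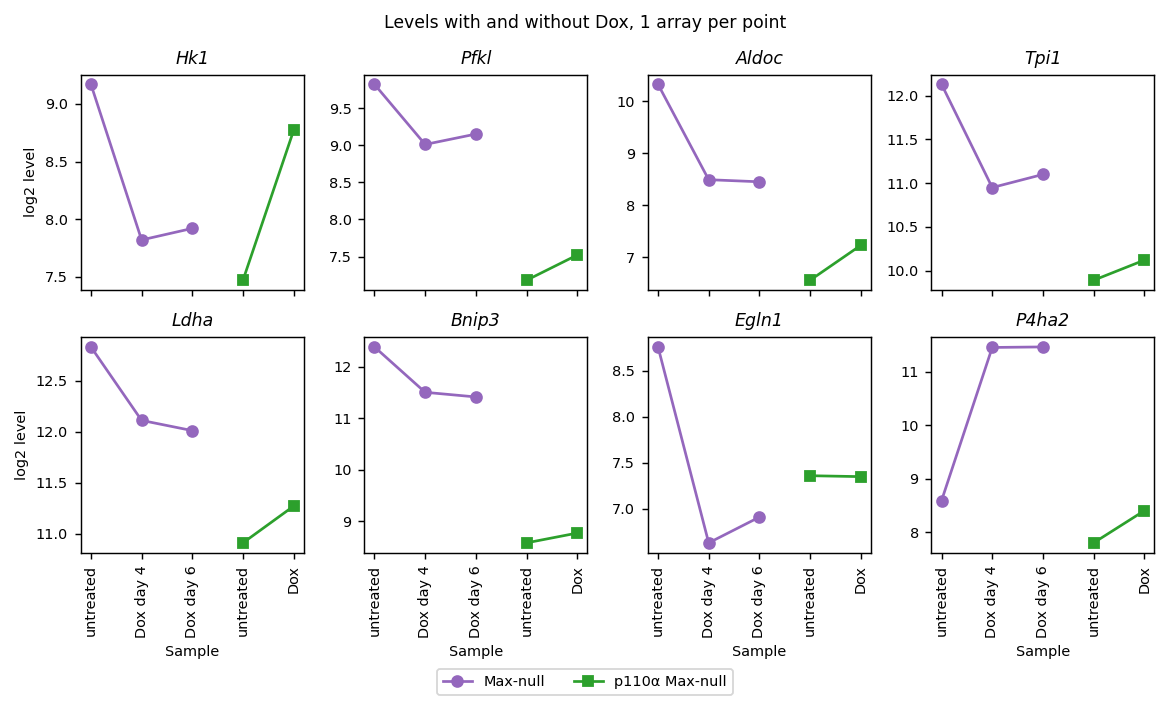
Log2 level (vertical axis, scaled separately in each panel) of 8 members in Max-null ESCs untreated and at days 4 and 6 of Dox (purple) and in p110 alpha Max-null ESCs untreated and with Dox (green), 1 array per point. The lines approach each other for most genes; P4ha2 stands at 11.45 and 11.46 in Dox-treated Max-null ESCs.

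The members varied together over the samples, with exceptions. Over the 14 arrays of the larger inferred run, 13 members correlated above 0.8 with the mean of the other members and 25 above 0.5, with a median Pearson r of 0.68. Egln3 (0.95), Bnip3 (0.93), Aldoc (0.93) and Slc16a3 (0.92) followed that mean most closely. Slc2a3 (-0.03), Pfkfb4 (-0.05), Eno2 (-0.36), Kdm3a (-0.40) and Vegfa (-0.48) were below 0. These 14 arrays share lines and treatments, so the values are descriptions. The correlation of genes outside the members with this mean was not computed, so the counts do not set the members apart from other genes.

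Genes of the surrounding pathways were called in both directions. Of 13 regulators of HIF, 1 rose and 1 fell at day 2, Vhl (0.26) and Rbx1 (-0.38), both parts of the ubiquitin ligase that destroys HIF. At day 5, 2 were higher, Cited2 (0.35) and Eloc (0.32), and 2 lower, Rbx1 (-0.33) and Arnt (-0.30), while Vhl was not called. Hif1a itself read 11.07 to 11.62 on the 14 arrays of the larger run and 10.56 to 10.89 on the other 4, with a day 2 difference of 0.01 ± 0.07. Among 33 other hypoxia-induced genes tested, 7 rose and 4 fell at day 2, near the shares of all genes (18.3% and 12.2%). At day 5, 12 were higher and 7 lower, against 25.7% and 18.5% of all genes. Tmem45a (1.30), Fam162a (0.72), the glycogen-branching enzyme Gbe1 (0.72) and Fut11 (0.42) rose at day 2. Stc2 (-0.93), the glycogen synthase Gys1 (-0.88), the oxidase Ero1a (-0.60) and Jmjd6 (-0.44) fell. The median of this list at day 2 was -0.04, while that of the members was 0.41.

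Among 19 other genes of glycolysis and pyruvate, 2 rose at day 2, the pyruvate dehydrogenase kinase Pdk4 (1.23) and the phosphoglucomutase Pgm1 (1.18). The 4 that fell were Slc16a4 (-1.10), Pck2 (-0.93), Pfkfb2 (-0.56) and Bpgm (-0.36). At day 5, 4 were higher, Pgm1 (1.96), Pdk4 (1.48), Pgm2 (0.60) and Ldhc (0.35), and 4 lower, Pck2 (-1.76), Slc16a4 (-1.25), Pfkfb2 (-0.78) and Tigar (-0.64). In the pentose phosphate pathway 2 of 7 rose at day 2, Pgls (1.16) and the transketolase Tkt (0.32), and at day 5 Pgls (1.16) and Pgd (0.31) were higher. Of 22 genes of pyruvate entry and the citric acid cycle, 5 rose and 4 fell at day 2, and 5 were higher and 5 lower at day 5. Pdp1 (0.91), the phosphatase that reactivates pyruvate dehydrogenase, and Dlat (0.63), Fh1 (0.41) and Suclg1 (0.34) were among the risers. The mitochondrial pyruvate carrier Mpc1 (-0.59), Idh2 (-0.36), Pdhb (-0.31) and Pdha1 (-0.28) fell. The shares of these lists called at day 2 can be set against the 18.3% and 12.2% of all genes, and those at day 5 against 25.7% and 18.5%. Genes outside the members also stood out between the untreated parental replicates: Pygl, the liver glycogen phosphorylase, read 7.68 in replicate 1 and 3.80, below the floor, in replicate 2, so the size of its difference is uncertain, and Slc16a4 was higher (2.55).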

How the data were processed

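RNA levels came from 18 arrays. The values deposited for each probe set are on the log2 scale and were made by the authors with RMA in the affy package, per the submitters' processing notes; versions and settings were not given in the sources used here. Of 45101 probe sets, 64 were controls, 34945 named 1 gene, 932 several and 9160 none in the platform annotation, and 34754 were matched to a reference gene by identifier. Each gene took its probe set with the highest mean. Members and gene lists were chosen with earlier results of these data known.

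A gene entered a fit if 2 or more of its samples exceeded 4.64, and an untested pair if 1 did. The fits used limma 3.58.1 in R 4.3.3, by lmFit and eBayes: 9 serum samples by day with line as a block (4 residual degrees of freedom), 4 untreated and day 5 serum pairs with pair as a block, and 5 Max-null samples with line as a block. The blocks follow the reference sample that each treated sample's description names. As a check, the difference between parental replicates 2 and 1 over 13412 genes correlated at r = 0.563 between untreated and day 5 samples, a value that holds any offset between RMA runs, and that between the T58A and wild-type c-Myc lines at r = 0.172 and, for day 2, at r = 0.0429. All tests were 2-sided, with Benjamini-Hochberg adjustment over the genes of a comparison at a threshold of 0.05. Single pairs of arrays were not tested; members at least 2-fold apart were counted. In simulated data, the 9-sample fit recovered 96% of genes changed by 1 on the log2 scale at day 5 and the 8-sample fit 41% in the c-Myc lines.

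Members described sample by sample were the 3 with the smallest day 2 p in each role, the 6 with the largest gap between the untreated parental replicates, and the 4 with the largest change in each other comparison; any others were chosen after their values were seen. Promoters and motifs came from RefSeq's table for GRCm38.p6. Alternatives changed the level filter, scaling, probe set choice, eBayes prior, block, fold threshold and the samples left in.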

Additional observations from a re-analysis of the deposited data

Results flagged for a closer look

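With Dox, 4 of 33 members at day 4 and 5 of 33 at day 6 lay above their untreated level in Max-null ESCs, against 43.3% and 46.2% of all genes, and 22 of 32 in the p110 alpha Max-null line, against 60.3%. The difference between the lines was not tested, and each value is 1 array against 1 array. The median change was -0.81 at day 4 and -0.81 at day 6 in Max-null ESCs and 0.38 in the p110 alpha line. The genes below were picked for Max-null changes of at least 2-fold at both days and a p110 alpha change of opposite sign. Their opposite signs are therefore set by the choice. Ndrg1 and P4ha2 also changed at least 2-fold at both days and did not reverse. In the p110 alpha line Ndrg1 differed by -0.82, and P4ha2 read 7.80 untreated and 8.40 with Dox. Egln3 differed from its untreated sample by -1.93 and -1.77 at the Max-null days and by 0.78 in the p110 alpha line. Aldoc gave -1.83, -1.87 and 0.67 in the same order. Hk1 gave -1.35, -1.24 and 1.30. Aldoa gave -1.15, -1.17 and 0.77. Tpi1 gave -1.18, -1.03 and 0.23. Pgk1 gave -1.05, -1.07 and 0.40.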

How the results depend on the processing

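With no replicate block, 13 members were called at day 2 in place of 20 (2663 genes in all in place of 4095), 2 in place of 8 for day 5 minus day 2 (57 genes in place of 305), and 0 in place of 1 at day 5 in the c-Myc lines (44 genes in place of 351); the block changed no other count of members by over 1.5 times. Leaving out 1 line, pair or sample moved the counts between 8 and 22 at day 2, 0 and 9 for day 5 minus day 2, and 0 and 6 for the c-Myc lines minus parental. It moved them between 0 and 26 in the parental pairs, 0 and 29 in the c-Myc pairs, 0 and 22 for c-Myc minus parental pairs, and 0 and 9 for Dox. At 1.5-fold in place of 2-fold, 17 members were lower in 2i in place of 10. No member called in the main fits changed direction under any alternative run. Under every alternative, 8 of 20 day 2 calls and 23 of 26 day 5 calls remained, and 0 of 8 and 0 of 6 for day 5 minus day 2 and the c-Myc lines minus parental; the cause was not tested beyond the smaller number of arrays in each. With 1 array per sample and 2 or 4 residual degrees of freedom, small changes cannot be told from noise.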
